A study of Mus musculus with 8 samples.

Results

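Control morulae, the mouse embryos injected with control siRNA (siControl), are described here gene by gene. They were taken from a set of 8 one-colour arrays: the 3 arrays labelled siControl were used, and the 5 arrays of P150 knockdown embryos were not. The embryos came from in vitro fertilisation, received control siRNA at the 1-cell stage, grew in KSOM culture medium and were collected as morulae at embryonic day 3.0. Each array carried RNA of 10 embryos, pooled, amplified linearly in 2 rounds, and labelled with Cy3 from 5.0 µg of amplified RNA. The control group carries the injection and the culture too, so its levels are those of injected and cultured embryos. The labels give neither strain nor sex, and do not say whether the 3 arrays hold embryos of separate collections, so the spread between them may be technical.

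The morula is the stage at which the embryo has switched from stored maternal RNA to its own genome, its cells flatten against each other, and outer cells gain an apical and a basal side. Position then decides fate through the Hippo pathway: in outer cells the co-activators YAP and TAZ enter the nucleus, bind TEAD4 and switch on Cdx2 and Gata3 on the way to the trophectoderm, which builds the placenta. Inner cells keep the pluripotency network around Pou5f1, Sox2 and Nanog, and part of them later turns to the primitive endoderm, of which Gata6 is an early factor. CAF-1, whose large subunit is the P150 protein made by Chaf1a, deposits histones on newly copied DNA.

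A level is the log2 processed signal of a probe minus the upper quartile (the 75th percentile) of its array, averaged over the 3 arrays, so 0 marks that quartile and 1 unit is a doubling of signal. A probe flagged well above background on all 3 arrays is called expressed, on none dark, and otherwise mixed. A dark probe was not well above background, which sets a bound and does not show that the transcript is absent. A gene is expressed where any of its probes is, dark where all of them are, and its brightest probe gives its level. Since probes differ in how well they bind, no order of transcript amounts between genes is drawn from levels.

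Replicates 1, 2 and 3 had an upper quartile of 1149.9, 1143 and 819 in processed signal. No spot was saturated, and between 49.9% and 52.4% of probes were well above background on an array. The lowest signal that was flagged well above background lay at 24.9 to 33.3, and the highest that was not lay at 34.1 to 45.9, so the border between expressed and dark is a band and not a line. Replicate 3 stood apart. Of 24157 expressed probes it was more than 1 log2 unit from both others on 2872, against 1145 for replicate 1 and 1288 for replicate 2. The median absolute difference between arrays was 0.27 for replicates 1 and 2, 0.41 for 1 and 3, and 0.44 for 2 and 3.

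Of 55681 probes, 24157 were expressed (43.4%), 9437 were mixed (16.9%) and 22087 were dark (39.7%). Through their RefSeq accessions 27235 of these probes could be named, for 20660 genes. In the morulae 12308 genes were expressed (59.6%), 2944 were mixed (14.2%) and 5408 were dark (26.2%). The counts of expressed genes in all lists below are to be read beside this 59.6%. With Agilent's weaker flag for a positive and significant signal, dark genes numbered 2543 and dark probes 10356. Without replicate 3 the mixed genes numbered 1756. Genes with 1 probe were expressed in 54.2% of cases and genes with several probes in 74.6%. In pooled embryos fewer cells of a type and less RNA per cell cannot be told apart.

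Transcripts of all first lineages were measured together. All 8 markers of the morula and its lineages were expressed, against 59.6% of all named genes. Gata6, a zinc finger factor of the primitive endoderm, read 7.56, 7.48 and 7.63 on replicates 1, 2 and 3. Krt18, a keratin of the first epithelium, read 6.62, 6.71 and 7.02. Pou5f1, the OCT4 gene at the centre of pluripotency, read 5.68, 5.80 and 5.38. These arrays lay within 0.43 log2 units of each other for each of the 3 genes, and replicate 3 was the highest for Gata6 and Krt18 and the lowest for Pou5f1.

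Cdx2, the homeobox factor that fixes trophectoderm fate, had the smallest spread of the markers, with 4.49, 4.51 and 4.44. Id2, whose product blocks helix-loop-helix factors, read 5.48, 5.19 and 4.86. Gata3, which acts beside Cdx2 downstream of TEAD4, read 5.41, 5.26 and 4.48. For Id2 and Gata3 replicate 3 was the lowest array, and for Gata3 it was 0.77 below the next.

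Levels of the Sox2 and Nanog probes were below those of the other markers and near 0.71, the median of all expressed probes. Sox2, the partner of OCT4 on DNA, read 0.94, 1.29 and 0.52. Nanog, the homeobox factor of the later epiblast, read 0.03, 0.19 and 1.18, with replicate 3 apart on the high side. Its mean of 0.46 ± 0.62 (SD, n = 3) was 0.11 without replicate 3.

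**Figure D1:**
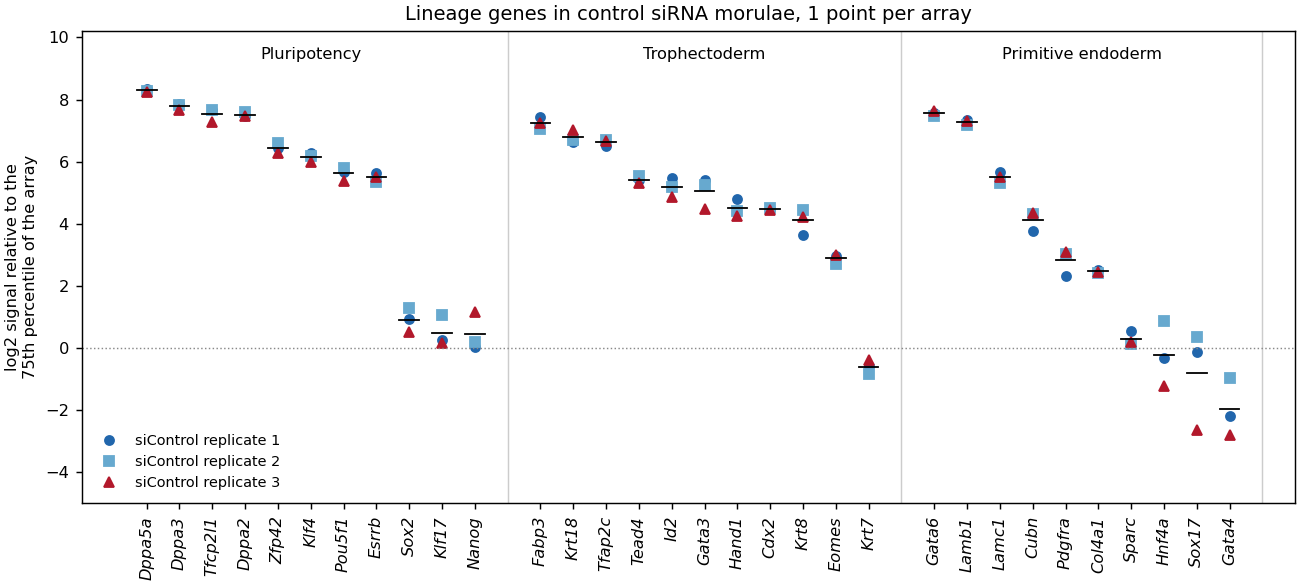
Levels of lineage genes in control morulae, one point per array and a bar at the mean of the 3 arrays; the vertical axis is the log2 signal relative to the upper quartile of the array, with that quartile dotted at 0. Replicates lie close together for bright genes such as Dppa5a, Cdx2 and Gata6, and replicate 3 lies below the others for Gata3, Sox17 and Hnf4a and above them for Nanog.

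Of 28 pluripotency genes 26 were expressed (92.9%), against 59.6% of all named genes, with a median SD of 0.22 between arrays. Dppa5a, an RNA-binding protein of pluripotent cells, read 8.35, 8.29 and 8.25. Dppa3, which protects the maternal genome from demethylation, read 7.86, 7.83 and 7.67. Tfcp2l1, a factor of naive pluripotency, read 7.67, 7.65 and 7.27. All 3 were bright on every array, and Tfcp2l1 was lowest on replicate 3.

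Dppa2, a chromatin factor that works with Dppa4 to prime genes for activation, read 7.47, 7.59 and 7.46. Zfp42, the zinc finger marker also known as Rex1, read 6.43, 6.59 and 6.29, and Klf4, one of the reprogramming factors, read 6.27, 6.18 and 6.0. Other members with a mean level above 5 were the nuclear receptor genes Nr5a2 and Esrrb, Klf2 and Tbx3. The FGF ligand gene Fgf4 read 4.17, 5.29 and 4.51, a wider spread with replicate 2 on top. Tcl1, a co-activator of AKT kinase, ran from -0.42 on replicate 3 to 2.44 on replicate 2 and was the only member with an SD above 1. Nr0b1, an orphan receptor of embryonic stem cells, was dark.

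Of 25 trophectoderm genes 20 were expressed (80.0%, against 59.6% of all named genes), 3 were mixed and 2 were dark. Fabp3, a fatty acid binding protein, read 7.45, 7.04 and 7.25. Lrp2, the endocytic receptor megalin, read 6.66, 6.52 and 6.92. Tfap2c, the AP-2γ factor that acts upstream of Cdx2, read 6.52, 6.71 and 6.66. The order of the arrays differed between these 3 genes, with SDs of 0.20, 0.20 and 0.10.

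Krt8, which forms filaments with Krt18, read 3.65, 4.46 and 4.22. Hand1, a helix-loop-helix factor of trophoblast giant cells, read 4.81, 4.41 and 4.26. Eomes, a T-box factor of trophoblast stem cells, read 2.97, 2.71 and 2.98. The products Krt7 and Krt19 were expressed with mean levels of -0.60 and -1.88. Not all factors of later trophoblast gave signal: Elf5 and Gata2 were dark, and the placental regulator Ascl2 was well above background on replicate 3 only, at 1.08. Esx1, a homeobox gene of the placenta, read -1.30 and -1.69 on replicates 1 and 2 and was not well above background on replicate 3.

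Of 20 primitive endoderm genes 16 were expressed (80.0%, against 59.6% of all named genes). Beside Gata6 the brightest were the laminin genes Lamb1 and Lamc1. Lamb1, a laminin chain of basement membranes, read 7.35, 7.18 and 7.32. Lamc1, the chain that pairs with it, read 5.67, 5.31 and 5.51. The receptor gene Pdgfra, an early surface marker of the lineage, read 2.33, 3.02 and 3.10. The endocytosis genes Cubn, Dab2 and Amn were expressed as well, with mean levels of 4.14, 3.55 and 1.36. Other matrix genes, Col4a1, Col4a2, Sparc and Lama1, had mean levels of 2.47, 1.73, 0.29 and -1.85.

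Regulators that follow Gata6 varied more between arrays than Gata6 did, and their signals were weaker. Sox17, Hnf4a and Gata4 had mean levels between -2 and 0, where the median SD of all expressed probes was 0.56. Between 6 and 8, where Gata6 lies, that median was 0.14. Sox17 read -0.13, 0.37 and -2.66, and Hnf4a, a nuclear receptor of visceral endoderm and liver, read -0.33, 0.87 and -1.22. Gata4 read -2.18, -0.95 and -2.80. In each of these 3 genes replicate 3 was the lowest array and replicate 2 the highest. Foxa2, Sox7 and Ttr, genes of more mature endoderm, were dark.

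Genes that pattern the body at and after gastrulation formed a mixed list. Of its 22 genes 11 were expressed (50%, against 59.6% of all named genes), 4 were mixed and 7 were dark. The dark ones were T (brachyury), Mixl1 and Mesp1 of mesoderm, Pax6 and Neurog1 of neural tissue, and Hoxb1 and Hoxd13. Otx2, a head and epiblast homeobox gene, was an exception at 4.82, 4.37 and 4.39. Gsc and Foxa1, both regulators of axial tissue, were expressed with mean levels of 1.89 and 1.99. Fgf5, a marker of the epiblast after implantation, was not well above background on replicates 1 and 2 and read 1.74 on replicate 3.

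Of 20 genes of the Hippo pathway 15 were expressed (75%, against 59.6% of all named genes), and Mob1a, Mob1b, Amotl1 and Tead3 were mixed. Amot, the junction protein that holds YAP outside the nucleus in inner cells, read 6.92, 6.72 and 6.85. Yap1 read 5.59, 5.43 and 5.37, and its relative Wwtr1, the TAZ gene, read 4.22, 4.01 and 4.10. Their DNA-binding partners Tead4 and Tead1 had mean levels of 5.42 and 5.62. The kinase gene Lats2 read 3.61, 3.89 and 3.84. The kinase gene Lats1 had a mean of -3.43, and Vgll4, a competitor of YAP for TEAD factors, was dark. Mob1a, the activator of LATS kinases, read -0.07 and 0.95 on replicates 1 and 2 and was not well above background on replicate 3.

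Cell junction and polarity genes had 22 of 24 members expressed (91.7%, against 59.6% of all named genes) with a median SD of 0.16. Ctnna1, which ties cadherin to actin, read 8.48, 8.39 and 8.65. Cdh1, the E-cadherin of compaction, read 4.69, 5.00 and 4.89. The tight junction genes F11r, Cldn7 and Tjp1 had mean levels of 6.66, 6.78 and 6.43, and Ezr, a protein of the apical domain, had 6.43. The SDs of these 6 genes lay between 0.04 and 0.17. Pard6b, of the apical PAR complex, was dark, and plakoglobin (Jup) was mixed.

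Transport genes used to fill the blastocoel were expressed at 7 of 10, against 59.6% of all named genes. The sodium pump genes Atp1b3 and Atp1b1 had mean levels of 6.28 and 4.61. Aqp3, a water and glycerol channel, read 6.22, 6.11 and 5.10, with replicate 3 low by 1.01. The chloride channel gene Cftr and the exchanger gene Slc9a3 were dark. The aquaporin genes Aqp11 and Aqp9 were expressed, at 1.97, 0.55 and 1.65 for the first and 0.19, 0.42 and 0.40 for the second, and Aqp8 was mixed.

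Of 20 genes of the BMP pathway and the Id family 13 were expressed (65.0%), near the 59.6% of all named genes. The list was led by Smad4, the shared SMAD, at 6.35, 5.99 and 6.17. The receptor genes Acvr1 and Bmpr1a had mean levels of 3.95 and 3.13. Of the ligands Bmp7 was expressed with a mean level of 0.41, Bmp4 and Bmp2 were mixed and read -0.16 and -0.61 on replicate 3, and the receptor gene Bmpr1b was dark. Beside Id2, Id3 was expressed with a mean level of 0.31. Id1 read 1.04, 0.68 and -1.48.

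Of 15 genes of the Nodal pathway 13 were expressed (86.7%, against 59.6% of all named genes). The convertase gene Pcsk6, whose product cleaves Nodal into its active form, read 5.64, 5.53 and 6.24. Gdf3 and the co-receptor gene Tdgf1 had mean levels of 4.98 and 3.89, and Nodal itself was expressed with a weak signal, at -2.09, -2.82 and -2.77. The receptor gene Acvr1b was dark.

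FGF signalling, which later splits epiblast from primitive endoderm, had 14 of 18 genes expressed (77.8%, against 59.6% of all named genes). Fgfr1 and Fgfr3 had mean levels of 4.06 and 5.09. Fgfr2 read -1.71, -0.33 and -0.17. The target genes Dusp6 and Etv5 read 4.20 and 5.18 on average, and the feedback gene Spry2 was dark. Sos1, the exchange factor that links receptors to RAS, read 0.61 and 0.17 on replicates 1 and 2 and was not well above background on replicate 3.

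Of 20 genes of the Wnt pathway 14 were expressed (70.0%, against 59.6% of all named genes), led by Ctnnb1, the β-catenin gene, at a mean of 7.11. Wnt7b and Wnt3a were expressed with means of 0.07 and -1.53, and Wnt3, Wls and Lef1 were dark. Of 13 genes of the Notch pathway 9 were expressed (69.2%, against the same share). Rbpj, the DNA-binding effector, read 4.95, 5.23 and 5.71. Notch1 read -4.24, -4.22 and -4.17, near the lowest level that can be called, and the ligand genes Dll1 and Dll4 were dark.

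The LIF pathway depended on replicate 3. On all 3 arrays 4 of 8 genes were expressed: Jak1, Jak2, Socs3 and Stat3. Without replicate 3 the count was 7. The receptor subunit gene Il6st read -1.12 and -0.20 on replicates 1 and 2 and was not well above background on replicate 3, and the cytokine gene Il6 had the same pattern. The receptor gene Lifr and the ligand gene Lif were mixed too, with no array above -2.31.

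Of 29 genes of the oocyte and of maternal effect 18 were expressed (62.1%), a share near the 59.6% of all named genes, 7 were mixed and 4 were dark. Stored maternal RNA and RNA made by the embryo cannot be told apart by these arrays. Khdc3, a subunit of the subcortical maternal complex, read 8.56, 8.35 and 8.43, and Padi6 of the same complex read 4.14, 3.62 and 4.11. The oocyte growth factor gene Gdf9 read 2.47, 1.73 and 2.13. The median level of the expressed members was -0.27, with a median SD of 0.51. Nlrp5, of the same complex, ran from -0.32 on replicate 1 to 2.23 on replicate 2. Mos, the kinase that holds the egg in meiosis, and Nobox, Wee2 and Zar1l were dark.

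Of 19 measured genes of the 2-cell stage, when the embryonic genome is first read in bulk, 13 were expressed (68.4%, against 59.6% of all named genes). Sp110, a nuclear body protein, read 8.24, 8.21 and 7.36. Gm4340 and Gm2016, of a multigene family of this stage, each had a mean level of 3.13. Zscan4f, of a zinc finger family that marks this stage, read 1.16, 0.61 and 1.39, and its relative Zscan4c was mixed. Members of such families share long stretches of sequence, so a probe may read several of them.

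Chromatin genes were expressed almost throughout. Chaf1a, the gene that the knockdown of this study targets, read 2.40, 2.09 and 2.27 in the controls. Its partner Chaf1b, the middle subunit, read 4.79, 4.80 and 4.79, and Rbbp4, the small subunit, read 5.33, 5.49 and 4.30. Replicate 3 was low for Rbbp4 by 1.03 and in range for the other subunits. Of 23 genes of CAF-1 and other histone chaperones 22 were expressed (95.7%), among them Rbbp7, Npm1, Nap1l1 and the histone chaperone gene Nasp, each with a mean above 8. Supt16, of the FACT complex, read 4.03, 3.75 and 2.10, and Asf1a was mixed while Asf1b read 4.64, 4.71 and 5.12.

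All 20 genes for silencing by H3K9 and H4K20 methylation were expressed, and so were all 18 Polycomb genes. Hdac1, a histone deacetylase, had a mean level of 7.68. The Polycomb genes Eed, Kdm2b and Suz12 had 7.94, 7.52 and 6.98. The H3K9 methyltransferase gene Suv39h2 read 6.87, 6.93 and 5.85, and its relative Suv39h1 read -2.26, -0.67 and -2.44. Ehmt1, another H3K9 methyltransferase gene, read 5.84, 5.89 and 4.07, so replicate 3 was apart in both Suv39h2 and Ehmt1.

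For DNA methylation 16 of 18 genes were expressed (88.9%). Dnmt3b, a de novo methyltransferase, read 6.74, 6.90 and 6.88, and its cofactor gene Dnmt3l read 5.65, 5.62 and 5.84. Dnmt1, the maintenance enzyme, read 0.89, 1.41 and 1.88, and Uhrf1, which brings it to copied DNA, read 5.38, 5.51 and 5.63. Of the demethylases Tet2 had a mean level of 3.80, Tet1 of -2.06 and Tet3 of -3.35. Only 1 of 2 Tet1 probes and 1 of 3 Tet3 probes were expressed.

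Machinery of growth was expressed with few gaps. All 38 replication genes, all 76 cytosolic ribosomal protein genes, all 36 splicing genes, all 15 housekeeping genes and all 11 subunits of RNA polymerase II measured were expressed, against 59.6% of all genes. The same held for 77 of 78 mitochondrial ribosomal proteins, 32 of 33 tRNA synthetases, 79 of 83 respiratory chain genes, 51 of 54 initiation factors and 36 of 39 proteasome subunits. Ribosomal protein probes had a median level of 8.33 and replication probes one of 5.18. Median SDs were small, at 0.15 for ribosomal proteins, 0.14 for replication genes and 0.11 for proteasome subunits.

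The leading members of these lists read alike on the 3 arrays. Hprt, the purine salvage enzyme often used as a reference, read 9.01, 9.02 and 9.34, and Rpl10, of the large ribosomal subunit, read 9.34, 9.28 and 9.60. Eif4a2, a helicase of translation initiation, read 8.82, 8.75 and 8.93. Psmc2, an ATPase of the proteasome, read 8.62, 8.60 and 8.79, and Atp5b, the catalytic subunit of ATP synthase, read 8.61, 8.67 and 8.90. In these 5 genes replicate 3 was the highest array. It was the lowest for U2af1, which recognises the 3′ splice site, at 8.12, 7.98 and 7.87.

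Few members of these lists were not expressed. The 3 dark proteasome genes were Psmb8 of the immunoproteasome, Psmb11 of the thymus and Psma8 of the testis. In the respiratory chain the muscle form Cox8b was dark, and Cox6a2 of heart and muscle and the testis forms Cox7b2 and Cox8c were mixed. Other tissue forms of the chain were expressed: the testis forms Cyct and Cox6b2 had mean levels of 2.97 and 0.72, and Cox7a1 of heart and muscle had -0.97. Mrpl21, of the mitochondrial ribosome, was dark. The mitochondrial tRNA synthetase gene Nars2 was mixed, and so were Eif5b, Eif4e3 and the kinase gene Eif2ak2 of the initiation list.

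**Figure D2:**
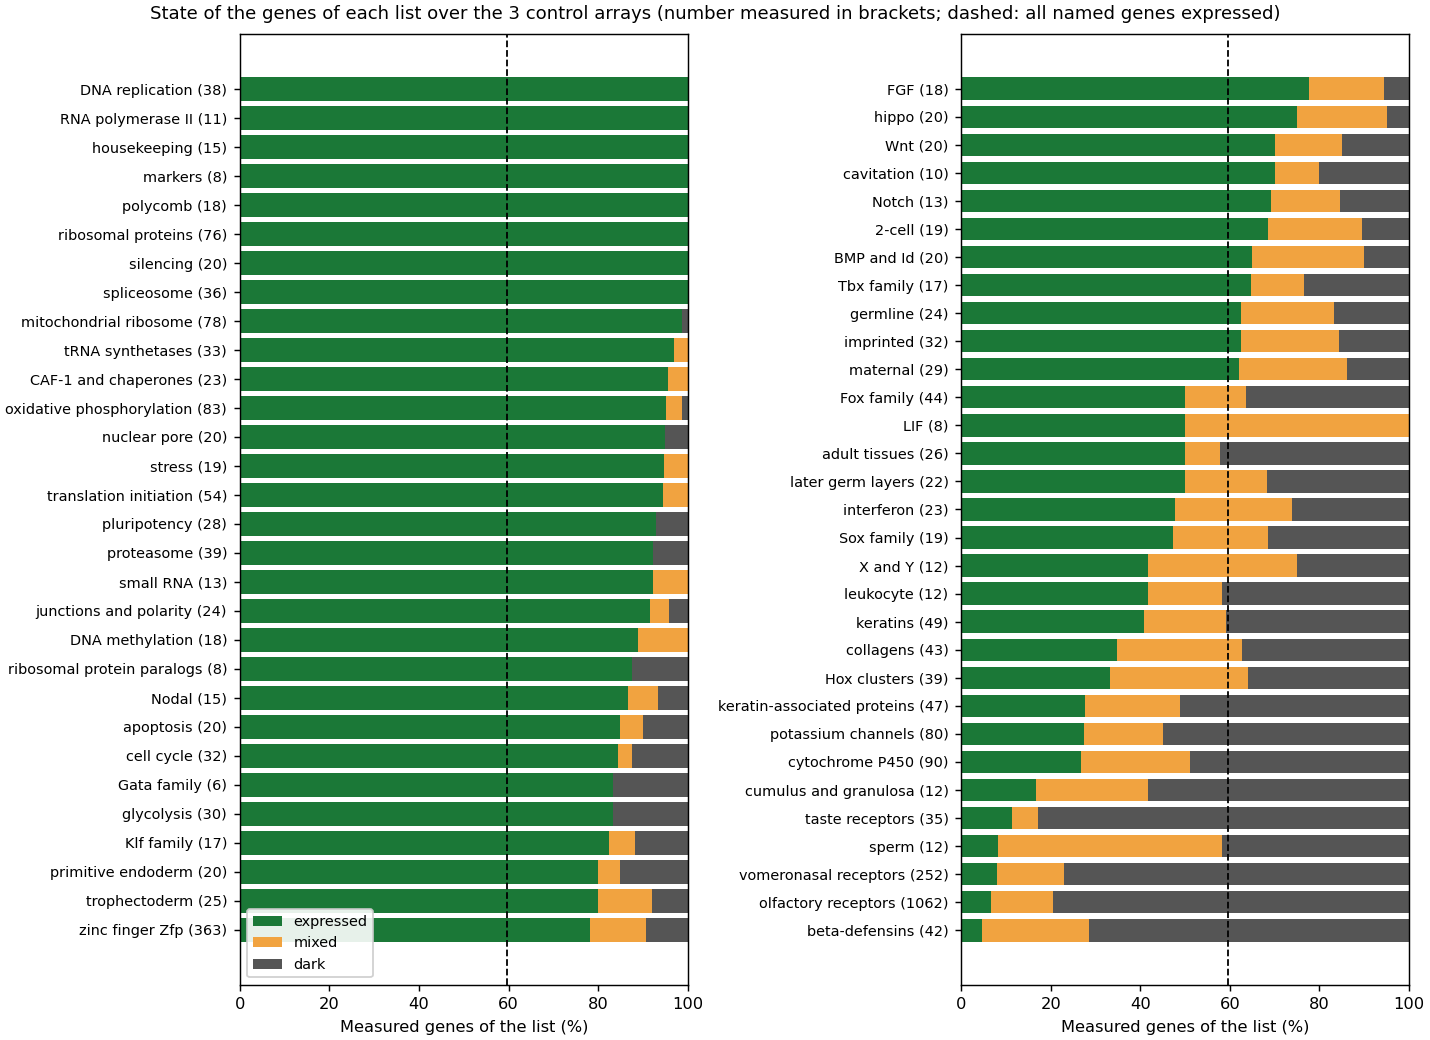
Share of measured genes that were expressed, mixed or dark in each of 61 lists, in percent, with the number of measured genes in brackets and a dashed line at the 59.6% of all named genes that were expressed. Lists of replication, splicing and ribosomal protein genes are expressed in full, and sensory receptors and beta-defensins are mostly dark.

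Replication was led by the helicase subunits Mcm6, Mcm4 and Mcm7, with mean levels of 7.71, 7.49 and 7.04. Cell cycle genes were expressed at 27 of 32 (84.4%, against 59.6% of all named genes). Ccne1, the cyclin of entry into S phase, read 7.61, 7.58 and 7.81, and Cdc20, an activator of mitotic exit, read 8.19, 8.0 and 8.43. Cyclin D genes were uneven: Ccnd3 read 5.09, 5.02 and 4.99, Ccnd1 read 1.58, 1.69 and 0.96, and Ccnd2 was dark, as was the kinase gene Cdk6. The inhibitor gene Cdkn1a read 2.84, 2.38 and 1.40, and the tumour suppressor gene Cdkn2a was dark.

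Apoptosis genes were expressed at 17 of 20 (85.0%, against 59.6% of all named genes). Birc5, a survivin gene that also serves in mitosis, read 8.32, 8.12 and 8.31. The initiator gene Casp8 was dark, whereas Casp2 and Casp9 had mean levels of 5.91 and 3.34. The p53 gene Trp53 read -1.51, -1.46 and -2.17, and its regulator Mdm2 read 6.61, 6.36 and 6.85. A list of heat shock and other stress response genes had 18 of 19 expressed, with a median level of 7.34 among those. It also holds Atf4, Xbp1, Herpud1, Ddit3 and Chac1, and the last 2 had mean levels of -1.55 and -1.99. Dnaja1, a co-chaperone, read 9.08, 8.99 and 9.35, and the inducible Hspa1a was mixed and read -3.18 and -3.32 on replicates 1 and 2.

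In glycolysis 25 of 30 genes were expressed (83.3%, against 59.6% of all named genes). Pgam1 and Gapdh, enzymes of the pathway, had mean levels of 7.95 and 7.38. The glucose carriers Slc2a3 and Slc2a1 had 6.82 and 4.87, and the liver and beta-cell carrier Slc2a2 was dark, as were the tissue forms Hk3 and Pklr, whereas Pgam2 of muscle was expressed with a mean level of 1.31. Of 8 ribosomal protein paralogs 7 were expressed, among them Rps27l at 7.72, 7.56 and 7.83, and the muscle form Rpl3l was dark. Rps4l, Rpl36al, Rpl39l, Rpl10l, Rpl22l1 and Rpl7l1 were expressed as well, with mean levels from 4.28 for Rpl7l1 to 6.79 for Rps4l.

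Outside ribosomal proteins, the 10 brightest genes were Bhmt, Exosc2, Gldc, Gabarapl2, Milr1, Nme2, Dnaja1, Rack1, Hprt and Gm6548. Bhmt, an enzyme that remakes methionine from homocysteine with betaine, read 9.17, 9.22 and 9.48. Gldc, the glycine-cleaving decarboxylase of mitochondria, read 9.09, 9.07 and 9.47. Exosc2, of the RNA exosome, read 9.15, 9.09 and 9.49. All 3 were highest on replicate 3, by 0.26 to 0.38 over the next array.

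Imprinted genes were expressed at 20 of 32 (62.5%), near the 59.6% of all named genes, 7 were mixed and 5 were dark. Igf2r, a maternally expressed growth factor receptor, read 5.46, 5.62 and 4.58, and Mest, a paternally expressed gene, read 2.94, 2.97 and 2.68. Igf2, Grb10, Peg10, Zdbf2 and Rtl1 were dark. Ube3a read 1.91, 1.88 and 3.68, with replicate 3 high. The X inactivation RNA Xist read 4.13, 4.66 and 4.24. The Y-linked genes Eif2s3y, Usp9y and Ddx3y were also expressed, with mean levels of 3.09, 2.5 and 1.94, so every array gave signal from both. Ddx3y read 3.0, 1.70 and 1.11. The Y-linked Uty and Kdm5d were dark.

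Interferon genes were expressed at 11 of 23 (47.8%, against 59.6% of all named genes). Adar, which edits double-stranded RNA, read 3.12, 3.45 and 3.26, and Mavs, the adaptor of RNA sensing, read 3.42, 2.98 and 3.13. The effector genes Ifit1, Ifit3, Rsad2 and Irf7, the ligand gene Ifnb1 and the sensor gene Tlr3 were dark. Cgas read -0.96, -1.71 and -4.10. In the small RNA pathway 12 of 13 genes were expressed (92.3%), with Drosha at 6.51, 6.29 and 5.91 and Dicer1 at 1.75, 0.91 and 0.55.

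Markers of cells that could accompany an embryo were mostly dark or mixed. Of 12 markers of cumulus and granulosa cells, 2 were expressed, 3 mixed and 7 dark, and among the dark were Has2, Ptx3 and Tnfaip6, which cumulus cells make around ovulation, and the receptor genes Fshr and Lhcgr. The expressed ones were Amhr2, a receptor gene, at 2.65, 2.26 and 2.10, and Foxl2 at 0.46, 0.82 and 1.04. The summed signal of the list was 6.78 to 8.50 times the upper quartile of an array.

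Of 12 sperm markers 1 was expressed: Prm2, a protamine, at -3.47, -4.56 and -3.70. With 2 of 3 arrays as the rule, 5 would count, and without any one replicate 2 or 3. The summed signal of the sperm list ran from 0.302 to 0.906 times the upper quartile. Of 12 leukocyte markers 5 were expressed and 5 were dark. The expressed ones were Itgam, at 1.80, 2.12 and 3.94, and Cd4, Cd74, Cd3e and Adgre1, with mean levels of -0.08, -0.38, -2.49 and -4.43. Itgam, Cd4 and Adgre1 each had another probe for the same transcript that was dark. Ptprc, which all leukocytes carry, Lyz2, Tyrobp, Cd14 and Cd8a were dark, and Cd79a was mixed. With the weaker flag 8 of the 12 would count. The summed signal of the leukocyte list was 5.93, 6.29 and 17.5 times the upper quartile on replicates 1, 2 and 3. Itgam was its brightest member on each array, so the sum follows that probe. Of the other expressed members, Cd4 read 0.09, -0.19 and -0.13, and Cd74 read -0.38, -0.42 and -0.35. Cd3e read -2.31, -2.87 and -2.28, and Adgre1 read -4.51, -4.83 and -3.95, highest on replicate 3. The part of such cells in the levels of other genes was not tested.

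**Figure D3:**
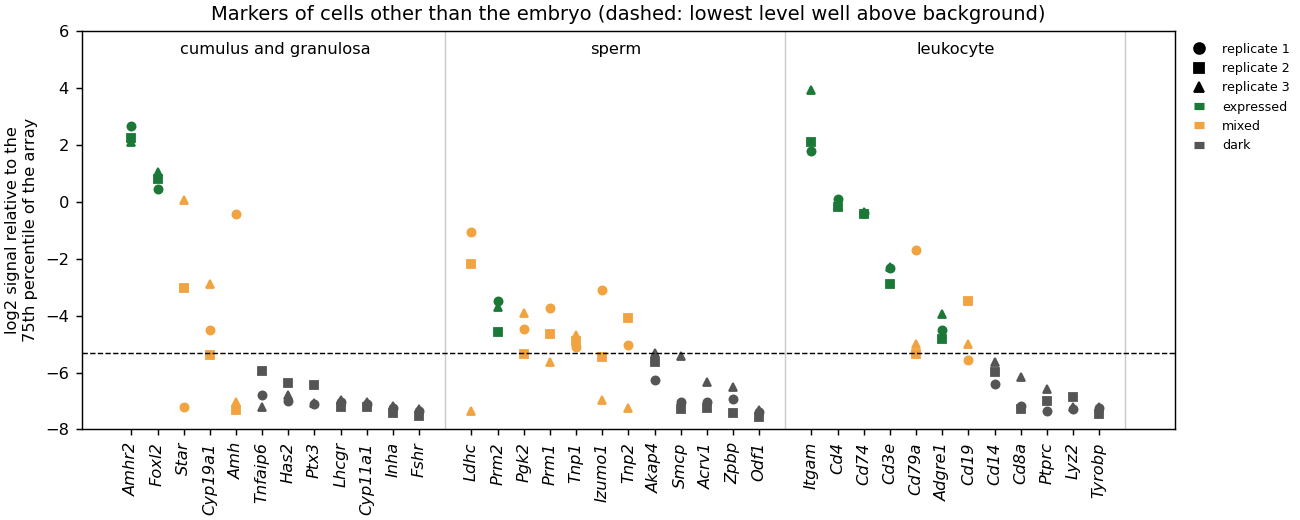
Levels of markers of cumulus and granulosa cells, sperm and leukocytes on each of the 3 control arrays, coloured by state, on the log2 scale relative to the array's upper quartile; the dashed line is the lowest level flagged well above background on any array. Most markers lie near or under the line, and Itgam stands highest on replicate 3.

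Of 24 germ cell genes, some of which embryos share, 15 were expressed (62.5%), near the 59.6% of all named genes. Tex19.1, which guards against retrotransposons, read 6.74, 6.81 and 6.43, Piwil2 of the piRNA pathway read 4.40, 4.26 and 4.02, and Mael read 4.11, 3.55 and 4.70. The meiosis genes Stra8 and Spo11 were dark, although Dmc1 and Sycp3 were expressed with mean levels of 2.23 and 2.30.

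Products of adult tissues were expressed at 13 of 26, with a median level of -2.40 among those. The dark members included albumin (Alb) and Fabp1 of liver, Gcg of pancreas, Gh of pituitary, Ckm and Mb of muscle, Umod of kidney and Sftpc of lung. Mbp, the myelin basic protein, was the brightest at 2.46, 2.03 and 1.91.

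Large families of tissue-bound genes were mostly not expressed. Of 1062 olfactory receptor genes, the odour receptors of the nose, 71 were expressed (6.69%) and 845 were dark. Of 252 vomeronasal receptor genes 20 were expressed, of 35 bitter taste receptor genes 4, of 42 beta-defensin genes 2 and of 47 genes for keratin-associated proteins of hair 13. A few members stood out from these families. Olfr1466 read 6.0, 5.99 and 6.10, Vmn1r65 read 2.90, 3.70 and 3.90, and Tas2r113 read 4.71, 4.67 and 4.96. They were chosen after their values were seen.

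With the weaker flag for a positive and significant signal, 259 olfactory receptor genes would count as expressed, so many of its members lie near the border of a call. In other tissue-bound families, 22 of 80 potassium channel genes, 24 of 90 cytochrome P450 genes, 15 of 43 collagen genes and 20 of 49 keratin genes were expressed. Kcnk6, a potassium channel, read 4.98, 5.11 and 4.93, and Cyp2s1, a P450 of epithelia, read 7.40, 7.23 and 7.54. The keratins were led by the pair Krt18 and Krt8 of simple epithelia, and Krt1, Krt2 and Krt15 of skin were dark.

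Transcription factor families divided member by member. Of 17 Krüppel-like factors 14 were expressed (82.4%), with Klf4, Klf2, Klf10, Klf6, Klf5 and Klf8 at 4.0 or above on average and Klf12 and Klf14 dark. Of 6 GATA factors Gata2 alone was dark, and Gata1, the erythroid factor, read 5.53, 5.64 and 5.15. Of 19 Sox genes 9 were expressed, and Sox5, a factor of cartilage and neurons, read 6.02, 6.01 and 6.17. Of 39 Hox genes 13 were expressed, 12 mixed and 14 dark. Zinc finger genes named Zfp were expressed at 284 of 363 (78.2%), with Zfp408 at 8.36, 8.24 and 8.61.

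The spread between arrays differed with the level. For probes with a mean between -2 and 0 the median SD was 0.56, and 23.0% had an SD over 1. Between 4 and 6 the median SD was 0.17, and from 8 upwards it was 0.14, where no probe of 484 had an SD over 1. Without replicate 3 the median SD over all expressed probes was 0.19 in place of 0.32. For 219 expressed probes printed 10 times on each array, the median SD between spots of an array was 0.0588 and between arrays 0.293, so the arrays differed 4.99 times as much as the spots.

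**Figure D4:**
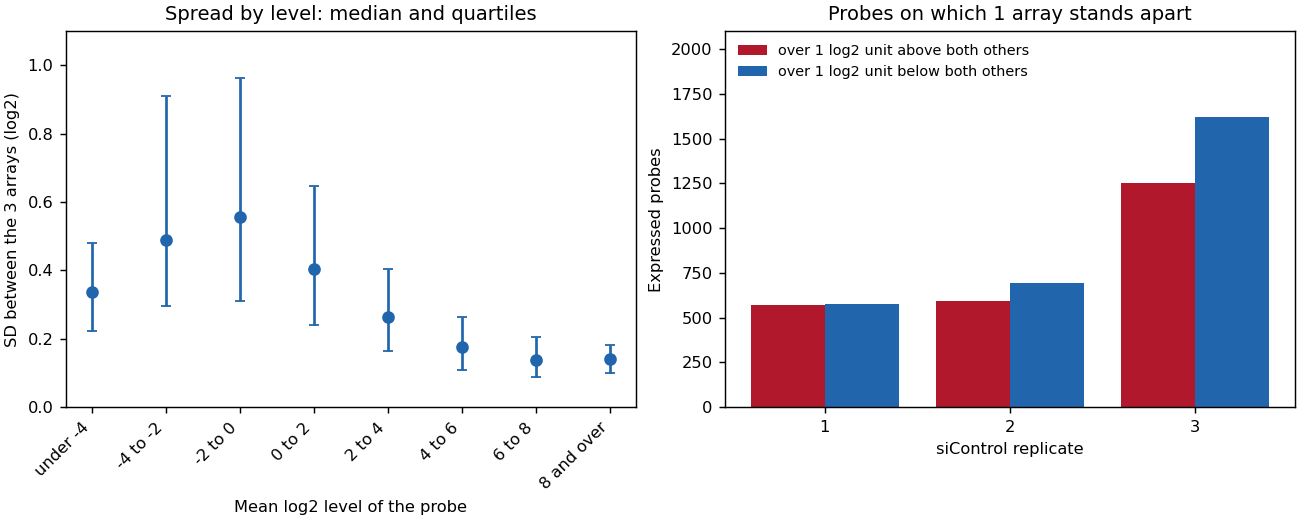
Left, SD between the 3 control arrays of expressed probes by mean level, with the median as a point and the quartiles as bars. Right, number of expressed probes on which an array lies more than 1 log2 unit above or below both others; replicate 3 has 1252 above and 1620 below, more than either other array.

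Among 3374 genes with a level of 4 or more, 33 had an SD over 0.8. Replicate 3 was the array apart in all 33, low in 31 and high in 2. Scn8a, a sodium channel, read 4.81, 4.84 and 2.36. Il15ra, a cytokine receptor, read 5.06, 4.98 and 2.96. Zfp791 read 5.58, 5.60 and 3.60. In all of these, replicates 1 and 2 lay within 0.08 of each other. Tnfrsf9, Dpysl5, Ehmt1, the splicing factor gene Srsf9 and Igsf9 had the same shape, and Proser3, at 3.50, 3.72 and 5.31, and Cdc27, a subunit of the anaphase-promoting complex, at 3.49, 3.70 and 5.09, had the opposite one. What sets replicate 3 apart was not tested.

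The largest SDs among expressed genes were 3.51 for Plppr3, 3.33 for Atg4c and 3.29 for Amph. Atg4c, a protease of autophagy, read 1.14, -0.24 and 6.09. Smarca2, an ATPase of the BAF remodelling complex, read 3.3, 2.47 and -1.99. Atg4c and Smarca2 were flagged well above background on every array, and replicate 3 was the array farthest from the other two.

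Few mixed genes were bright on any array. Of 2944 mixed genes 132 reached a level over 0 on some array and 3 reached over 2. Adamts15, a matrix protease, read 6.80 on replicate 3 and was not well above background on the others. Ints2, of the Integrator complex, read -2.15 and 2.61 on replicates 1 and 3 and was not well above background on replicate 2. Sdf2l1, a chaperone partner of the endoplasmic reticulum, read 2.25 and 1.80 on replicates 1 and 2 and was not well above background on replicate 3.

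Probes of one gene did not always give the same state. Of 5476 genes with several probes, 849 (15.5%) had an expressed and a dark probe together, and 1494 did where a probe counted as expressed with at least 2 of 3 arrays above background and as dark otherwise. In 723 of the 849 both states occurred on probes of the same RefSeq transcript, and in 126 the states separated by transcript. For Elk1, an ETS factor of the MAP kinase pathway, a probe read 8.50, 8.39 and 8.83 and another for the same transcript was dark. Kctd14, Sprr2a2, Slc10a1 and Wtap were also in this class, with an expressed probe above 8 on average. These genes count as expressed by the rule that any expressed probe suffices. Which of their probes reads the transcript was not tested. The position of probes along their transcripts was not analysed here.

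The 126 genes whose states separated by transcript were among 757 genes with probes for several RefSeq transcripts. Whether they reflect isoforms was not tested. Tpm3, a tropomyosin, read 7.93, 7.94 and 8.0 on the probe of one RefSeq transcript, and the probes of both others were dark. Gnas, an imprinted locus with several first exons, read 6.19, 5.94 and 6.66 on one transcript and 1.71, 1.14 and 0.20 on another, and the probe of one more was dark. Ddx17, an RNA helicase, read 6.42, 6.65 and 6.21 on one transcript and was dark on the other. Mbp had its mean signal of 2.14 on one transcript, while both probes of the other were dark. A probe that fails to bind and an isoform that is not made cannot be told apart with one probe per transcript.

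Promoters of expressed and dark genes differed in base composition. RefSeq windows of 300 bases, from 250 before to 50 after the start, were found for 16374 of 20660 genes. Cytosine followed by guanine (CpG), the site of DNA methylation that is dense in CpG islands, occurred 20 times in the median window of expressed genes, 8 times in that of mixed genes and 4 times in that of dark genes. The 250 bases before the start of 4 genes are shown 5′ to 3′ on the gene's strand, with CpG in capitals, as an expressed lineage factor, a dark factor with many CpG, and dark liver genes with few. They were chosen after the states were seen.
Cdx2: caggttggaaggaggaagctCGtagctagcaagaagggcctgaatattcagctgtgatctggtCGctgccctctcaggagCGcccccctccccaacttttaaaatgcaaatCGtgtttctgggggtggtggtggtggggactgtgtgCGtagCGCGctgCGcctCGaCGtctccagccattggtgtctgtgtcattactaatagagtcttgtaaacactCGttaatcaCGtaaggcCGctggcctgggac
Gata2: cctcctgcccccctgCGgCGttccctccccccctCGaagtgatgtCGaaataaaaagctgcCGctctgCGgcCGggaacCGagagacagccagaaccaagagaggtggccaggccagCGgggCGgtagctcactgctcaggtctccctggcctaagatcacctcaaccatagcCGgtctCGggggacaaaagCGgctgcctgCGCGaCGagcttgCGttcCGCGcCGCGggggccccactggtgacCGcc
Alb: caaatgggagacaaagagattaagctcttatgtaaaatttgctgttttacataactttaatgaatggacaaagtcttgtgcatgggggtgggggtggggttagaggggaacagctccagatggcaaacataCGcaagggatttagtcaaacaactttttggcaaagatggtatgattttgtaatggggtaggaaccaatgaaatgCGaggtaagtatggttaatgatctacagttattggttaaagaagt
Fabp1: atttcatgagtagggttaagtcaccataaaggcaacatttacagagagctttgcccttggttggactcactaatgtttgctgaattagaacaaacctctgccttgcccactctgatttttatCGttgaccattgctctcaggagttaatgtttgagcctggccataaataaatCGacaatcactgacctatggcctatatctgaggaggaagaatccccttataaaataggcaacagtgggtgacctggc

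These stretches lie in GRCm38.p6 at chr5:147307250-147307499 on the minus strand for Cdx2 and, on the plus strand, at chr6:88193641-88193890 for Gata2, chr5:90460620-90460869 for Alb and chr6:71199629-71199878 for Fabp1. Cdx2 had 13 CpG in the bases shown and 18 in its window, and the octamer ATGCAAAT, the letters that OCT4 is known to bind, began 147 bases before its start. Gata2 had 22 CpG in the bases shown and 32 in its window, and a second RefSeq window of the gene had 29. Alb and Fabp1 had 2 CpG each in the bases shown, and in Fabp1 the letters TATAAA began 30 bases before the start. A match of letters is a description and not a binding site.

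Over all genes the share of windows with 20 or more CpG was 50.8% for expressed genes, 13.1% for dark genes and 37.7% for all. Among expressed genes the median CpG count went from 10 at levels under -2 to 24 at levels of 8 and over. With olfactory, vomeronasal and bitter taste receptors left out, the median of dark genes was 6. Gata2 was not alone, since 554 dark genes had 20 or more CpG. Sensory receptor genes lay at the other end, with a median of 1 CpG in olfactory and in vomeronasal receptors. Members of the 2-cell list had a median of 1.5 and maternal genes one of 4, although most genes of these lists were expressed.

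Fixed letters were searched on both strands. TATAAA occurred in 9.36% of expressed, 23.7% of dark and 14.2% of all windows. With the receptor families left out, these shares were 9.12%, 19.2% and 12.2%. Between 40 and 20 bases before the start on the gene's strand, TATAAA occurred in 1.88%, 5.27% and 3.04% of windows with all families kept. GGGCGG, the GC box, occurred in 65.4%, 26.3% and 52.1%, and CCGGAAGT, an ETS motif, in 9.02%, 0.993% and 6.0%, in the same order. Both of these contain CpG themselves. CCAAT occurred in 43.0%, 40.2% and 42.1%, and the octamer in 1.64%, 2.70% and 1.94%. None of these motifs contains another.

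**Figure D5:**
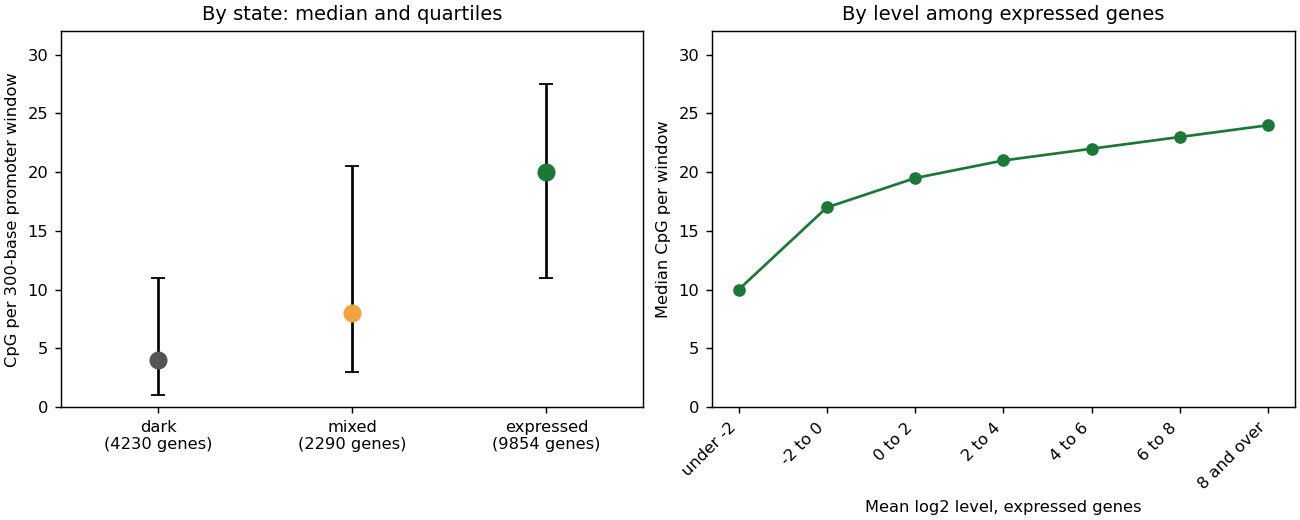
CpG per 300-base promoter window. Left, median and quartiles for dark, mixed and expressed genes, with medians of 4, 8 and 20; right, median for expressed genes by mean log2 level, from 10 under -2 to 24 at 8 and over.

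Along chromosomes the expressed share of genes ran from 52.1% on chromosome 6 to 68.9% on chromosome 12 among autosomes and was 50.3% on X, or 410 of 815 genes. On Y 3 of 21 genes were expressed. Without olfactory and vomeronasal receptors the share on X was 50.7%, and on chromosome 6 it was 55.8%. Neighbouring named genes formed 111 runs of 12 or more expressed genes and 11 runs of 12 or more dark ones. Receptor genes were in 10 of the 11 dark runs. The longest held 23 genes from Olfr916 to Olfr944 on chromosome 9. The run without them held 16 lectin-like receptor genes of natural killer cells, from Klre1 to Klra10, on chromosome 6.

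Olfr1466, the bright exception, sits next to a dark run of 18 olfactory receptors on chromosome 19 that begins with Olfr1467. The longest expressed run held 34 genes on chromosome 9, from Icam4 to Ccdc159, with the remodeller ATPase gene Smarca4, the arginine methyltransferase gene Carm1 and the stress sensor gene Keap1 in it. Another of 32 genes on chromosome 10, from Kiss1r to Tcf3, held Polr2e, Gpx4 and Mbd3.

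The expressed share was lower among noncoding genes. Of 792 genes that RefSeq lists as long noncoding RNA 29.8% were expressed, against 60.9% of 19662 protein-coding genes. Probes for genomic intervals without a gene name were expressed at 4141 of 16194 (25.6%).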

How the data were processed

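Amplified RNA of pooled control siRNA morulae was measured on 3 Agilent arrays of 1 colour. The authors used Agilent Feature Extraction 10.5.1 for the scans. Per the file headers, its processed signal holds intensity values after background subtraction and spatial detrending, with no scaling between arrays. The flags for background and outlier spots are values of other kinds, 0 or 1, as deposited. The deposited series table of log2 values and the 5 knockdown arrays were not used here. Since an equal mass of amplified RNA was labelled per array, levels are relative, and total RNA per embryo was not measured.

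Control spots were left out. Outlier spots were dropped where another spot of the probe remained, spots of a probe were averaged, log2 was taken, and each array's 75th percentile over 55681 probes was subtracted. The flag gIsWellAboveBG on all 3 arrays made a probe expressed and on none dark. The files hold no gene symbols: RefSeq accessions without versions were joined to a RefSeq table, which named 27235 probes and left 1450 RefSeq probes unmatched. Promoter windows came from the RefSeq table of build GRCm38.p6 and were matched by symbol. Python 3.11.15, pandas 2.3.3, numpy 2.4.6 and, for normexp, limma 3.58.1 in R 4.3.3 were used. The computation of states and spreads was checked on simulated data in which the flags were set from the true state. That check cannot show how well the flag separates expressed from dark probes. With 1 group there is no test, so values are given by array, as a mean, SD and count. The number of arrays limits the precision.

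The members and lists were chosen with earlier results of these data known, and the 20 family lists were added after the files were seen. Genes were named from the 8 markers, CAF-1 subunits, the 4 brightest and up to 3 dark members of each list, all members of short lists, and genes that are brightest, most variable or have disagreeing probes. Not all of these are printed, and others are examples chosen after their values were seen. Alternatives were another background flag, 2 of 3 arrays, outlier spots kept, each array left out, normexp, quantile normalization, other scalings, coding accessions, and the brightest or the mean probe of a gene. Genes with 1 probe, coding genes, and receptor families left out were added as alternatives after the data were seen. Members not named on the array, such as Oog1 and Tsix, were not analysed here.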

Additional observations from a re-analysis of the deposited data

How the results depend on the processing

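With the flag for a positive and significant signal in place of well above background, dark probes numbered 10356 and dark genes 2543. Expressed members then were 7 of LIF, 4 of cumulus and granulosa, 5 of sperm, 8 of leukocyte, 259 of olfactory, 68 of vomeronasal and 10 of taste receptors, 25 of keratin-associated proteins, 12 of beta-defensins, 21 of Hox, 26 of collagens and 46 of cytochrome P450 genes. With 2 of 3 arrays as the rule, they were 8 of LIF, 4 of cumulus and granulosa, 5 of sperm and 6 of beta-defensins, and genes with disagreeing probes numbered 1494. Leaving out each array in turn gave 5626 to 6703 mixed probes, 1756 to 2119 mixed genes, 4 to 7 LIF, 2 to 3 sperm and 2 to 5 beta-defensin genes, and a median SD of 0.19 to 0.31. The range ended at replicate 3 in each of these, with the lowest mixed counts and SD and the highest list counts without it. All other counts stayed within 1.5 times their value under the alternatives run.

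Scaling to the median of an array adds a median of 4.72 to every level, and scaling to the upper quartile of expressed probes takes 3.64 away, by construction, with the differences between arrays of a gene nearly kept. Normexp moved 242 of 482 named levels by more than their SD, the mean of all expressed probes moved 78, and quantile normalization moved 0. No paired analysis was possible because the values come from no test, and the control group was compared with no other group.

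The number of arrays, few probes per gene (1 probe for 15184 of 20660) and signals near background limit what is dark: a weak transcript and none cannot be told apart there.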
